A study of Mus musculus with 6 samples.

Results

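The accessibility landscape of control muscle stem cells (MuSCs) comprised the 3 control libraries of an ATAC-seq experiment of 6 libraries, and all 75412 of the 75412 peaks of its processed table were described; the 3 libraries of Taf4a mutants were not used. MuSCs were freshly isolated from C57BL/6 mice labelled Control, and the same number of cells entered each transposition with the Tn5 transposase, which inserts sequencing adapters where DNA is accessible. The study's methods describe controls as littermates that carried floxed Taf4a alleles on both chromosomes, with or without the tamoxifen-inducible Cre driven by Pax7 (Pax7CE) and with or without the Pax7-zsGreen reporter, from adult males and females. Which alleles, sex, age or tamoxifen treatment belonged to which library, and whether animals were pooled, is not given in the sources used here. Limb and trunk muscle was digested, cells positive for SCA1, CD45 or CD31 were removed, and Integrin-α7-positive or zsGreen-positive cells were sorted; by the study's own reanalysis the sorted cells were largely but not wholly pure. The peaks were called in each sample and unified over all 6 libraries, so that the table can also hold regions found only in mutant cells.

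MuSCs, or satellite cells, lie between the fibre and its basal lamina and are held in quiescence by Notch signalling, the calcitonin receptor and other niche signals. The paired-box factor PAX7 marks them throughout adult life, MYF5 and MYOD1 are the helix-loop-helix factors of myogenic commitment, and Calcr encodes the calcitonin receptor that is lost on activation. Accessible sites at gene starts are usually shared between cell types, whereas accessible distal sites, which include enhancers, differ more between them.

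The sequences below are from the RefSeq promoter table and the GRCm38.p6 genome (the build named mm10). They show promoters of the 3 marker genes and, on the plus strand, the central bases of the strongest distal peaks inside and beyond Pax7 and before Fos. Each promoter runs from 250 bases before to 50 after a RefSeq start on the gene's strand (minus for all 3). The Pax7 sequence belongs to a RefSeq start inside the gene. It lies in the peak over the Pax7 start but does not contain the annotated start, chr4:139833528, from which distances are given below. Capitals mark matches, on either strand, to any of 20 short motifs that were searched; the centre of a peak is not necessarily its summit.
Pax7 promoter, chr4:139832919-139833218: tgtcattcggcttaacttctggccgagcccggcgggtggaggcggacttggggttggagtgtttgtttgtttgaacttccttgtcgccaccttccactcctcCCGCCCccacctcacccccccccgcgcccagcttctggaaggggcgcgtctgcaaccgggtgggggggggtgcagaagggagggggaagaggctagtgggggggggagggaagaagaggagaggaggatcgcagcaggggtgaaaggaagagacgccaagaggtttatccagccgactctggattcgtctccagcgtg
Myf5 promoter, chr10:107486085-107486384: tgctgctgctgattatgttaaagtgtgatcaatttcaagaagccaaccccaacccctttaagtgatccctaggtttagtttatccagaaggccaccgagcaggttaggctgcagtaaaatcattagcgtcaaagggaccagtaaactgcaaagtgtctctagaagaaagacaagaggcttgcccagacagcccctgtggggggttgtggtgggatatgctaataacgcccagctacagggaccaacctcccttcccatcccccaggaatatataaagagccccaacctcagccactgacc
Calcr promoter, chr6:3764664-3764963: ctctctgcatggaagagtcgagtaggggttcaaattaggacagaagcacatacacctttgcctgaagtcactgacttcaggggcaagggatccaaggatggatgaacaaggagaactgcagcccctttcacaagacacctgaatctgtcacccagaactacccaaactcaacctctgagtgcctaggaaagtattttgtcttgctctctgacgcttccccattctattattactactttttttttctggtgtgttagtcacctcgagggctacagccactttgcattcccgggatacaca
Pax7 intron, chr4:139771412-139771612: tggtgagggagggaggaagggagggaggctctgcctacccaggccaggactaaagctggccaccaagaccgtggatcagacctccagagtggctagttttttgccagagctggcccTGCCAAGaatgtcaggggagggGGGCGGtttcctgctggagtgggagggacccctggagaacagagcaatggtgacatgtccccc
Beyond Pax7, chr4:139698269-139698469: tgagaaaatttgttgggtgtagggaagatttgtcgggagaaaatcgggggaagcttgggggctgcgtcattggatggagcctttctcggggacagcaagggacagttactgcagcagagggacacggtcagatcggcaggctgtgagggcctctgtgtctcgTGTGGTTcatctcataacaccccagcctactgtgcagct
Before Fos, chr12:85455439-85455639: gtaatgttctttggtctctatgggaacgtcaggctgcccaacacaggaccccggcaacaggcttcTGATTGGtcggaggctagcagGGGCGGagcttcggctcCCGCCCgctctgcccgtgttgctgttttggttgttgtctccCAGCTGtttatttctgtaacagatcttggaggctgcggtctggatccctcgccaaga

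The printed Pax7 sequence held 1 match to the Sp/GC box GGGCGG, which is found in 35.7% of the 32851 promoters of this length in the RefSeq table. The promoters of Myf5 and Calcr held no match to the searched letters. The Pax7 intron centre held an NFI site (CTTGGCA) and a GC box, and the centre beyond Pax7 a RUNX site (AACCACA). Before Fos lay an E-box CAGCTG, a pair of GC boxes and a CCAAT box (CCAATCA). Among all 75412 peak centres of the same length, 15.6% held the GC box, 7.02% the NFI site, 4.44% the RUNX site, 21.7% CAGCTG and 2.58% the CCAAT box, so these matches describe the sequences only.

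A value in the table is the number of reads in a peak after the authors' scaling for sequencing depth, rounded to a whole number. From the whole numbers that are missing among the values, 27151599 reads in peaks were recovered for control 1, 35226223 for control 2 and 34747506 for control 3. The median value of a peak was 176 in control 1, 175 in control 2 and 204 in control 3, and 0, 1 and 3 peaks were listed at 0. Values rise with the width of a peak, so levels were compared per kb of peak wherever regions differ in width. No p-value is given below, because the 3 libraries form a single group, and errors are the SD over the 3 libraries (n = 3).

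All 3 marker genes had a peak at their start, and the values at Pax7 were the most unequal between libraries. The peak over the Pax7 start (chr4:139832550-139834483, centre 11 bp from the annotated start) had values of 4533, 3128 and 3729 in controls 1, 2 and 3. It reached 1964 ± 365 per kb, within the highest 14.1% of the 14221 coding genes with an annotated peak. At the Myf5 start (chr10:107484699-107487079) the values were 2202, 1975 and 2671, and at the Calcr start (chr6:3763260-3764813) they were 1403, 1183 and 1420. These amounted to 959 ± 149 and 860 ± 85.1 per kb, close to the middle of coding genes (highest 49.5% and 54.1%). A peak within 1000 bp of a start is common, found at 64.3% of all coding genes, so its presence at all 3 is no mark of the cell type; Pax7 stood highest per kb.

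Larger than the Pax7 promoter peak were a pair of distal peaks at the same locus. One lay inside the gene, 62016 bp downstream of the start (chr4:139770858-139772167), with values of 7447, 4415 and 4862. The other lay beyond the end of the gene, 135159 bp from the Pax7 start (chr4:139697536-139699202), with values of 10439, 5804 and 6960, and was the second-highest of the 40133 peaks without an annotated gene. Its nearest coding start was that of the taste receptor gene Tas1r2, at 44820 bp. In both, control 1 was the highest and control 2 the lowest library, and the authors' annotation gave neither a gene, because it reached at most 10938 bp from a start. Peaks within 1 to 100 kb of the nearest coding start were summed as the distal signal of that gene. Pax7 had 33 such peaks and a distal signal of 32875, 21261 and 24394, 26177 ± 6009 on average, which was the third-highest of 21851 coding genes after Cxxc5 (27273 ± 2558) and Zbtb20 (26938 ± 2383). The order at the top rested on control 1: without it Pax7 was sixth, and without control 2 or control 3 it was first. With peaks only up to 50 kb it was 20th, a limit chosen, like the distal signal itself, after seeing the data.

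**Figure D1:**
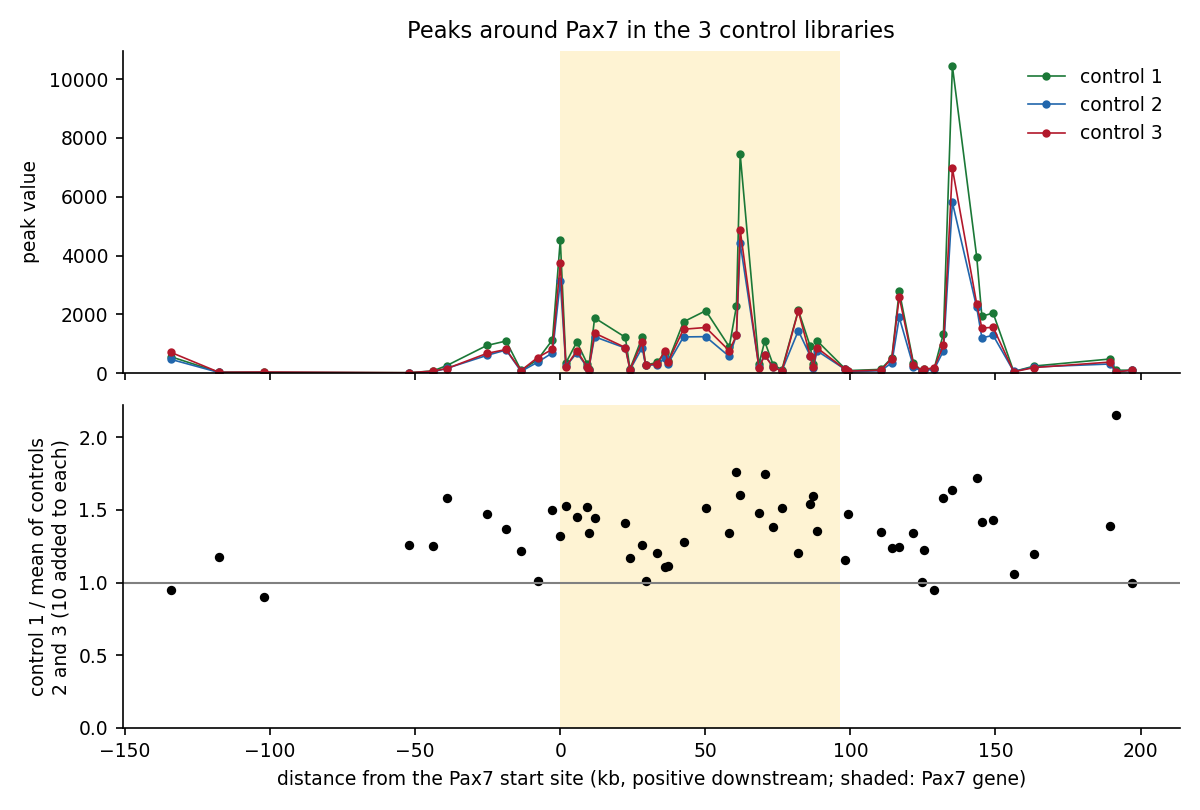
Peaks within 200 kb of the Pax7 start against their distance from it in kb; the upper panel shows the value of each peak in each of the 3 control libraries, joined by lines, and the lower panel control 1 divided by the mean of controls 2 and 3 (10 added to each). Control 1 lay above the other libraries at the promoter, at the intron peak and at the peak beyond the gene, where it reached 10439.

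The excess of control 1 extended over the whole locus. From chr4:139677067 to chr4:139885577, 49 peaks in succession formed the longest stretch in which the values of 1 library, centred on its genome-wide level, departed the same way. Control 1 was the highest library in 44 of these 49 peaks, against 17.0% of all peaks, and the summed values were 61579, 38737 and 45590. The ratio of control 1 to the mean of the others ranged from 0.951 to 1.76 with a median of 1.36. The stretch was found by its values and is a description, the labels do not tell which libraries carried the Cre or the reporter, and their part in it was not tested. Without control 1, the Pax7 promoter peak and the distal peaks kept values of at least 3128, 4415 and 5804.

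By value, Calcr and Myod1 also had distal peaks above the promoter peak in at least some libraries. Per kb, some distal peaks lay above the promoter peak on average at Calcr (1394 against 860), Myod1 (2019 against 851) and Myf5 (1283 against 959). None of the peaks of Calcr, Myod1 or Myf5 described here showed the imbalance of control 1. Inside Calcr, 22850 bp from the start, a peak with values of 2102, 1920 and 2359 exceeded the promoter peak in every library. A peak 176604 bp upstream of the Myf5 start had 1817, 1455 and 1940. By value it was below the Myf5 promoter peak in every library, but per kb it was higher on average (1288 against 959). It lay in an intron of Ptprq, whose start was nearer (57313 bp), and was not counted for Myf5. Closer to Myf5, 2 smaller peaks 1459 and 2487 bp upstream had means of 485 ± 41.8 and 305 ± 46.9. At Myod1 the start had 1591, 1710 and 1866, and 5 strong peaks lay between 23180 and 38688 bp upstream, a stretch that includes known enhancer sequence of Myod1 and in which the authors' annotation names 1700025L06Rik. The farthest of them had 1735, 1559 and 2077 and the next 1509, 1486 and 2195, while the other 3 averaged between 901 and 1307. Control 1 divided by the mean of the others was between 0.821 and 1.08 at the starts of Myf5, Calcr and Myod1 and at these distal peaks (10 added to each value).

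To set MuSC genes beside those of other lineages, 212 genes in 15 lists were examined, and 160 of them had an annotated peak, beside 65.1% of all coding genes. The level per kb of the peak nearest to the start was highest for immediate early genes and lowest for cardiac, epithelial and endothelial genes. The MuSC list stood between them at the start but among the highest in distal signal. The median over all 14221 coding genes with a peak was 949 ± 77.4 per kb. These levels take the peak that the table places nearest to the start; at some genes another peak at a GENCODE start was stronger.

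All 26 genes of MuSC identity and quiescence had an annotated peak, with a median of 1039 ± 97.2 per kb. Of these, 8 were in the upper quartile of coding genes, which by definition holds 25.0% of them. The highest were the Notch target Hes1 (3953, 3521 and 4723; 2963 ± 444 per kb) and its relative Hey1 (2819 ± 324 per kb), which encode repressors that act downstream of Notch. The lowest was the peak nearest to the start of the receptor gene Notch1 (308, 321 and 393; 214 ± 28.7 per kb), but a second peak at an alternative Notch1 start, to which the authors' annotation gave no gene, had 3002, 2733 and 3286. On the log2 scale the list's median lay 0.13 ± 0.02 above that of all coding genes, a difference that turned to -0.061 when all peaks annotated to a gene were summed. In distal signal, 22 of the 26 genes exceeded the 90th percentile of coding genes, 2079, which 9.99% of them exceed. The list's median distal signal was 6160 ± 525, against 56.7 over all coding genes, and the highest values were those of Pax7, Fgfr1 (13833 ± 2187), Heyl (12529 ± 1474), Hes1 (12276 ± 1714) and Notch3 (8709 ± 908). The exceptions were Myf5, Itga7, Six4 and Rapsn, and Rapsn, which anchors acetylcholine receptors at the synapse, had the least (147 ± 14.6). Distal signal depends on which coding start is nearest, and so on the spacing of genes, for which no correction was made. Cxxc5 and Tas1r2, ranked 1 and 14 in distal signal, had no peak counted within 1000 bp of their coding starts. Of all coding genes, 53.2% had a distal peak.

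Myogenic commitment genes had a median of 851 ± 68.2 per kb, with 9 of 10 annotated and 5 of 10 in the top 10% of distal signal. Mef2d, a MADS-box factor of differentiation, was the highest (3634, 3165 and 3985; 2553 ± 292 per kb). Mymk, which encodes the membrane protein that makes myoblasts fuse, was the lowest (19, 22 and 21; 95.7 ± 7.07 per kb). Myog, the factor of terminal differentiation, had 282, 297 and 224, well under Myod1 in all 3 libraries. Mef2c had no annotated peak, although an unannotated peak of 308, 261 and 269 covered its start.

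Among the 18 genes of the sarcomere and the mature fibre, 17 had an annotated peak, with a median of 483 ± 30.4 per kb and 2 of 18 in the top 10% of distal signal. The fast myosin light chain gene Mylpf was the highest (4275, 3733 and 4770; 3160 ± 385 per kb), whereas the fast heavy chain Myh4 was the lowest (63, 56 and 64). Myom2 had no annotated peak. A peak within 1000 bp of an own start was found at 12 of the 18 genes (66.7%), beside 64.3% of all coding genes. Acta1, Myh2, Myh7, Ckm, Myom2 and Mb had none there. A peak at the start of Actn3, which encodes the α-actinin of fast fibres, had 1951, 1757 and 2202 (1759 per kb) and carries the name Zdhhc24 in the table.

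Immediate early and stress genes, which cells switch on within minutes of a stimulus, were the highest list, with a median of 2466 ± 261 per kb, 18 of 19 annotated and 13 in the upper quartile. By the nearest peak Egr1 led (9468, 8144 and 10318; 4022 ± 473 per kb), followed by Fosl2 (3768 ± 472), Fos (3733 ± 367) and Jun (3501 ± 407), the last 3 being subunits of AP-1. By the nearest annotated peak, 1679 bp away, Atf3 was the lowest (642, 593 and 953; 792 ± 212 per kb), but an unannotated peak at its start had 4332, 3743 and 4534 (2345 per kb). Junb, another AP-1 gene, likewise had 2726 per kb at the nearest peak and 3829 at a second start peak (3508, 3194 and 4176), which is above the values of Fosl2, Fos and Jun. The peak at the start of the phosphatase gene Dusp1 (4951, 4344 and 5449) was assigned by the authors to the overlapping AC122252.2. In distal signal 14 of 19 were in the top 10%, with Fos at 21997 ± 2372 and Socs3 at 17988 ± 2667. Housekeeping genes followed at 1957 ± 249 per kb, with 15 of 16 annotated (the start peak of Rpl4 was assigned to Zwilch) and 5 of 16 in the top 10% of distal signal. The lowest nearest peak was that of the elongation factor gene Eef1a1 (549 ± 49.9 per kb), but a second peak of Eef1a1 at a start had 4540, 4047 and 5196 (2613 per kb).

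The 10 lists of other lineages had medians from 163 to 639 per kb, and the MuSC list lay 1.80 ± 0.13 above the median of their pooled genes with a peak on the log2 scale. Of 18 haematopoietic genes only 7 had an annotated peak and 3 had a peak within 1000 bp of an own start, against 64.3% of coding genes. Their median was 381 ± 26.4 per kb, and 3 of 18 were in the top 10% of distal signal. Ptprc, which encodes the sort marker CD45, had no peak, and nor did, among others, Cd3e, Cd4, Cd8a, Cd79a, Itgam, Adgre1, Lyz2, Laptm5 and Gata1. Vav1 was the highest (3052, 2818 and 3305; 1314 ± 105 per kb), at a peak 3034 bp from the annotated start, and Ikzf1 the lowest (103 ± 31.2 per kb). Among the other sort markers, Ly6a, a gene of SCA1, had no peak and Pecam1, which encodes CD31, had a small one at its start (110, 96 and 132). That peak carries the name Milr1 in the table.

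Endothelial genes had a median of 199 ± 14.7 per kb, with 10 of 14 annotated, from Eng (121 ± 23.6) to the angiopoietin receptor gene Tek (904 ± 173); Tie1, Vwf, Emcn and Sox17 had none. Mesenchymal (fibro-adipogenic) genes had 236 ± 9.53 per kb with 12 of 14 annotated, from Twist2 (77.5 ± 21.7) to Dpt (1173 ± 122), and Ly6a and Mfap5 had none. Mural genes of smooth muscle and pericytes were the highest of these lists (639 ± 34.9 per kb, 9 of 10 annotated, Rgs5 absent), from Abcc9 (279 ± 15.6) to Kcnj8 (1181 ± 88.1). Schwann and glial genes followed at 541 ± 57.4 per kb with 8 of 10 and the neural crest factor gene Foxd3 the lowest (257 ± 32.8), while S100b and Cdh19 had none. Each of the endothelial and mesenchymal lists had 4 of 14 genes in the top 10% of distal signal, mural 2 of 10 and Schwann 3 of 10. Fewer cells with an accessible site and lower accessibility in each cell cannot be told apart in bulk libraries, and nor can the sorted cells and others in the sort.

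Among lists of more distant lineages, hepatic and pluripotency genes seldom had an annotated peak, whereas the shares of neuronal (69.2%), cardiac (70.0%) and epithelial genes (58.3%) were near that of all coding genes. A peak within 1000 bp of an own start was found at 40% of cardiac genes, against 64.3% of coding genes. On that measure the neuronal and epithelial shares were again 69.2% and 58.3%. Neuronal genes had a median of 303 ± 41.5 per kb with 9 of 13 annotated (Syt1 lowest at 111 ± 9.69, Slc17a7 highest at 555 ± 67.6). Hepatic genes had 300.7 ± 17.4 with 4 of 12 (Apob 245 ± 8.07, Apoa1 385 ± 17.5) and pluripotency genes 288 ± 44.8 with 2 of 10 (Nanog 118 ± 13.4, Utf1 458 ± 91.0). Epithelial genes had 177 ± 9.63 with 7 of 12 (Esrp1 99.2 ± 12.4 by its nearest peak but 203 at a stronger start peak, Trp63 567 ± 81.7) and cardiac genes 163 ± 7.46 with 7 of 10 (Tbx5 107 ± 8.50, Ankrd1 1336 ± 151). No hepatic or pluripotency gene was in the top 10% of distal signal, beside 2 of 13 neuronal, 3 of 12 epithelial and 1 of 10 cardiac genes. Genes without an annotated peak were Rbfox3, Neurod1, Stmn2 and Nefl among neuronal genes, Cyp2e1, Hnf4a, Fgb, Serpina1a, Afp, Tat, Fga and Apoc3 among hepatic genes, and Krt5, Krt14, Krt18, Cdh1 and Grhl2 among epithelial genes. In the cardiac list these were Myh6, Nppa and Tbx20, and in the pluripotency list Pou5f1, Zfp42, Dppa3, Dppa5a, Lin28a, Tdgf1, Esrrb and Fgf4. An unannotated peak at the start of Esrrb had 208, 262 and 262. The medians of these lists rest only on the genes with an annotated peak.

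**Figure D2:**
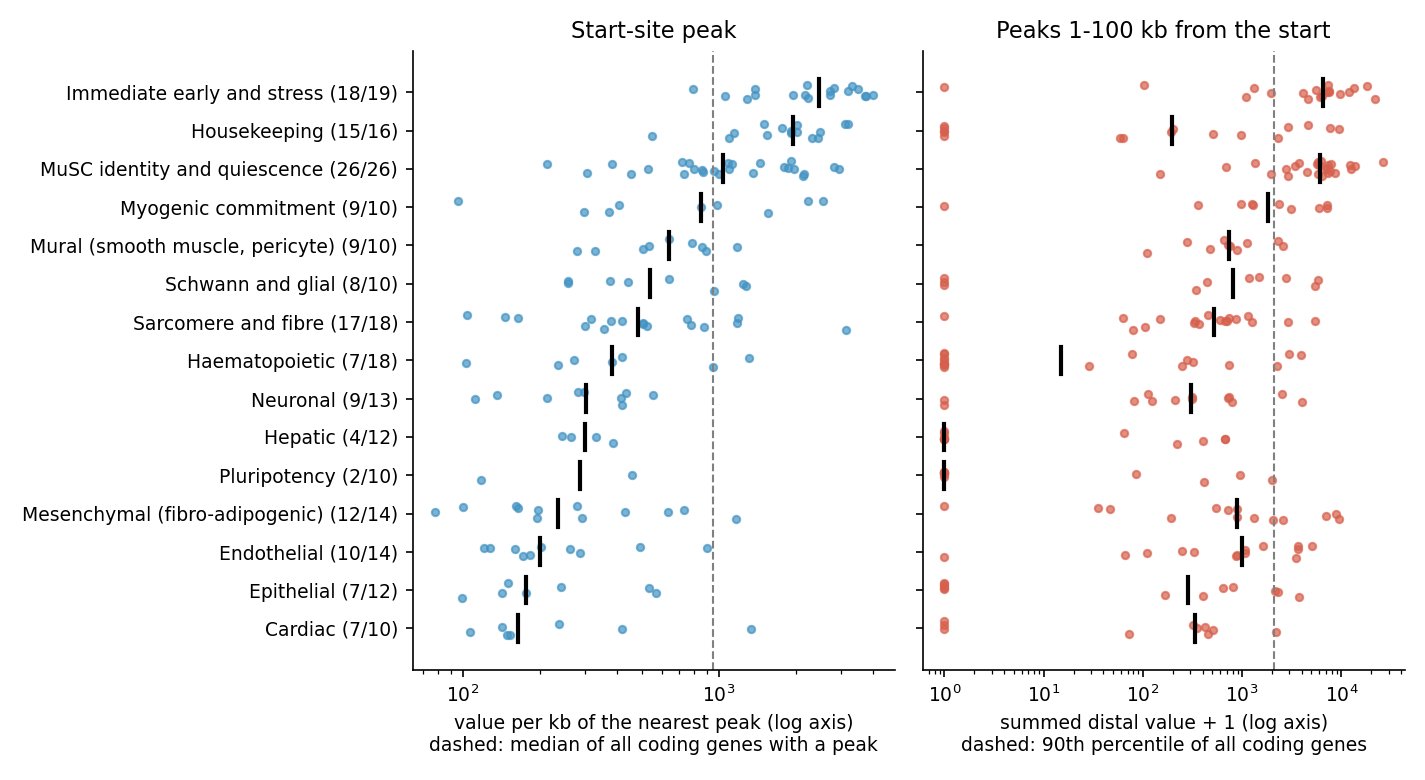
Gene lists ordered by the median per kb of the peak nearest to the start (left) and their distal signal (right), both on log axes; each point is the mean of a gene over the 3 control libraries, black bars are list medians, and the brackets give the genes with an annotated peak. The MuSC list lies near the middle of coding genes at the start, and 22 of its 26 genes lie above the dashed 90th percentile of distal signal.

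The strongest peak of all was ribosomal. It covered the annotated rRNA gene CT010467.1 (chr17:39843033-39846318) with 110866, 82723 and 111191, and the second-strongest, at a neighbouring pseudogene (chr17:39848238-39848794), had a mean of 14563 ± 2003. The third, at the predicted gene Gm10800 (chr2:98666244-98667319), had 12918 ± 806 and lay in sequence of which 81.3% was masked as repeats. The fourth had no annotated gene (12151 ± 1463) and lay 179 bp from the GENCODE start of Ppp2r3d. The other 6 of the first 10 included, beside H2-DMa, the transcription factor genes Klf9 (9979 ± 1399), Klf10 (9744 ± 1268), Hivep2 (9560 ± 1093), Egr1 (9310 ± 1096) and Jun (8851 ± 1029). H2-DMa (9982 ± 1267), a gene of antigen presentation that ranked just above Klf9, was the annotated gene of a peak whose nearest coding start was that of the bromodomain gene Brd2 at 804 bp. The Klf9 peak lay 5944 bp from the coding start and had values of 9668, 8761 and 11507. Control 2 was the lowest of the 3 libraries in each of these 10 peaks, as it was in 98.1% of the 4514 peaks with a mean over 2000 and in 51.8% of all peaks, so this order is not particular to them.

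Per kb, the rRNA, pseudogene and Gm10800 peaks again led, at 30926, 26193 and 12017. Gm33838, a lincRNA, was next (6788 per kb, 92.8% masked), and the others of the first 10 were Hdgfl2 (5436), Phf19 (5343), Khsrp (5198), Coq10b (5060), the zinc-finger factor gene Sp1 (4998) and Pdk4 (4849), which encodes a kinase that restrains pyruvate oxidation. The Phf19 peak was intronic, 8926 bp from the annotated start, and the other 5 covered starts. By the sum over all its annotated peaks, Klf9 was the highest coding gene (15205, 13812 and 17937), followed by the H3K27 demethylase gene Kdm6b (14698 ± 1887), Egr1 (13862 ± 1663), the clock repressor Nr1d1 (13200 ± 1804), Fosb (13177 ± 1367), the lamin A/C gene Lmna (12971 ± 1767) and Bhlhe40 (12928 ± 1781), with CT010467.1, the pseudogene and Gm10800 as the others of the first 10. Most annotated peaks, 8 each, were held by Bcl9l, Smug1, Igfbp5 and Gm43378, and 18 genes had 7, of which Cry2, Pax7, Rara, Gm47092, Blnk and Bahcc1 had the highest sums. Of all 21400 annotated genes, 12653 had 1 peak.

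Of the 10 strongest peaks without an annotated gene, 6 lay within 66 to 333 bp of a GENCODE start, at Ppp2r3d, Kat6b, Nr3c1, Rbpj (the DNA-binding partner of Notch), Stag1 and Pnrc1. The other 4 were distal. Beside the peak beyond Pax7 these were chr12:55464046-55467316, 26966 bp from the start of the NF-κB inhibitor gene Nfkbia (5789, 5566 and 7062), chr15:85598937-85601135, 17563 bp upstream of Wnt7b (5760, 5143 and 6161), and chr12:85454917-85456162, 18351 bp upstream of Fos (5960, 4944 and 6136). Of these 4, only the peak beyond Pax7 had control 1 as its highest library. In all, 865 of the peaks without a gene (2.16%) lay within 1000 bp of a GENCODE start, and these had 561 ± 56.1 per kb against 272 ± 25.9 for the others.

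Peak signal was concentrated at gene starts and fell with distance from them. Peaks within 1000 bp of a GENCODE start made up 22.1% of peaks and held 55.1% ± 0.69 of the summed signal, while introns held 24.4% ± 0.44 with 43.0% of peaks, intergenic sequence 18.0% ± 0.23 with 31.0%, and exons 2.40% ± 0.03 with 3.96%. By the distance in the authors' table, the median was 1162 ± 91.5 per kb at 0 to 100 bp, 857 ± 66.5 above 250 and up to 500 bp, 473 ± 36.6 from there to 1000 bp and 303 ± 28.1 beyond 7000 bp. Peaks without a gene had 274 ± 26.2 per kb, and the 2467 peaks over 100 kb from any GENCODE start 234 ± 20.9. The drop between the bins on either side of 500 bp exceeded the SD between libraries many times over, whereas neighbouring bins beyond 1000 bp differed by about the SD or little more. In each library taken alone the medians fell from bin to bin without exception.

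**Figure D3:**
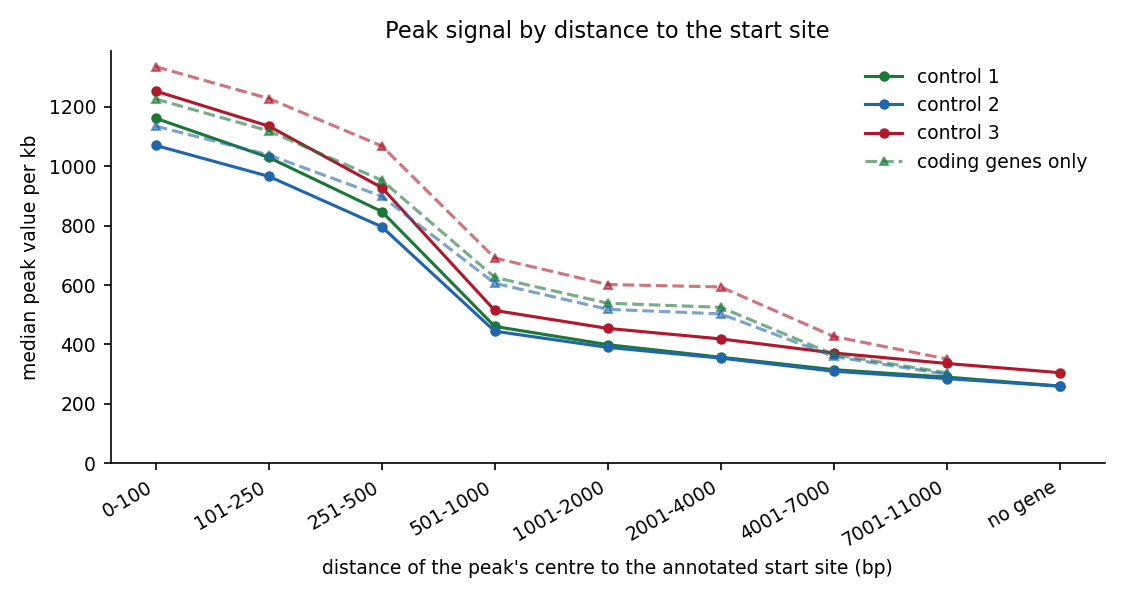
Median peak value per kb in bins of the distance in bp between the centre of a peak and the annotated start, for each of the 3 control libraries (circles) and for peaks of coding genes alone (triangles, same colours). All 3 libraries fall from over 1000 per kb next to the start to about the level of peaks without a gene.

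The biotype of the annotated gene separated coding genes from all others. The 23357 peaks of coding genes had a median of 671 ± 59.0 per kb and held 59.2% ± 0.61 of the signal, against 306 ± 31.4 per kb for the 3133 peaks of lincRNAs, 329 ± 28.8 for 1608 of antisense RNAs, 305 ± 22.6 for 852 of miRNAs, 287 ± 22.3 for 472 of snRNAs and 269 ± 27.1 for 2590 of processed pseudogenes. The 40133 peaks without a gene, 53.2% of all, held 29.9% ± 0.50. Within 1000 bp of the annotated start the contrast was wider, at 1070 ± 86.6 per kb for coding genes, 482 ± 1.71 for processed transcripts, 384 ± 37.2 for antisense RNAs, 336 ± 32.2 for lincRNAs and 259 ± 20.5 for processed pseudogenes. Beyond 1000 bp coding genes had 395 ± 36.8 and lincRNAs 299 ± 31.9, a difference still larger than the SD. Leaving out peaks that also lay within 1000 bp of a coding start changed the antisense value at starts to 361 ± 26.0 and that of lincRNAs to 334 ± 33.0. The 141 peaks of rRNA genes had only 287 ± 26.6 per kb, so that the ribosomal peak at the top of the table was not typical of its class.

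Signal was spread unevenly over peaks. The strongest 1% of peaks held 9.60% ± 0.26 of the signal, the strongest 10% held 48.8% ± 0.73, and the strongest 7852 ± 197 peaks (10.4% ± 0.26) held as much as all the others. A peak at the 10th percentile had a mean value of 42.7, at the 90th 1476 and at the 99th 3790. Width went with level: peaks up to 300 bp had 217 ± 20.7 per kb and those above 1000 and up to 2000 bp 893 ± 82.4, the latter with 54.2% ± 0.43 of the signal.

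Short motifs were counted in windows of 100 bases on either side of each peak centre and in windows of the same length 5 kb away that overlapped no peak. Distal peaks, more than 1000 bp from a GENCODE start (n = 58776), differed from promoter peaks (n = 16636) and from the 66804 flanks. The AP-1 site TGANTCA, bound by FOS and JUN proteins, was in 20.8% of distal peaks, 5.36% of promoter peaks and 5.72% of flanks. The E-box CAGCTG, the letters preferred by MYOD1 and MYF5, was in 23.9%, 14.0% and 8.98%. The CTCF core AGNNGGCGC was in 3.64%, 9.38% and 0.542%, the NFI site CTTGGCA in 8.06%, 3.38% and 3.46%, and the TEAD site ACATTCC in 4.73%, 1.93% and 2.73%. Motifs of blood-cell factors were not enriched in this way. The letters AGATAA of GATA factors were in 7.89% of distal peaks against 11.4% of flanks, and the PU.1 letters GAGGAAGT in 1.42% against 1.401%. RUNX (AACCACA, 5.08% against 5.16%), SOX (ACAATGG, 2.62% against 3.08%), FOX (TGTTTAC, 2.80% against 2.72%), HNF1 (GTTAATNAT, 0.434% against 0.555%), the CCAAT box (2.15% against 2.35%) and the paired homeodomain letters TAATNNATT (2.33% against 3.26%) were likewise near or below the flanks. The CRE TGACGTCA (0.618% against 0.117%), the E-box CACGTG (3.75% against 2.61%) and MEF2 (CTAAAAATA, 0.534% against 0.391%) were above them, as were the GC box (7.23% against 2.56%), ETS (CCGGAAGT, 0.352% against 0.163%), NRF1 (CGCATGCG, 0.140% against 0.0344%) and YY1 (AAGATGGCG, 0.170% against 0.147%). As a ratio to the flanks, the CTCF core (6.71), the CRE (5.29) and NRF1 (4.05) stood above AP-1 (3.63) and CAGCTG (2.66). Base composition moved with these shares, since the median GC content of the windows was 64.2% in promoter peaks, 49.3% in distal peaks and 44.6% in flanks, and its part in them was not tested.

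In promoter peaks the GC box led, in 45.0% of windows against 2.56% of flanks, and it went with the level: 69.1% ± 0.03 of the strongest 10% per kb held it and 21.9% ± 0.28 of the weakest. The ETS site CCGGAAGT was in 4.29% ± 0.03 of the strongest and 0.401% ± 0.03 of the weakest 10%, YY1 (AAGATGGCG) in 2.08% ± 0.07 and 0.140% ± 0.03, NRF1 (CGCATGCG) in 1.64% ± 0.13 and 0.261% ± 0.03, and the CCAAT box bound by NF-Y in 10.6% ± 0.10 and 2.47% ± 0.16. With peaks ranked by value, the shares were 2.67% ± 0.17 and 0.381% ± 0.03 for ETS and 1.52% ± 0.03 and 0.0601% for YY1. AP-1 ran the other way in promoters, at 2.87% ± 0.18 and 9.98% ± 1.15, as did CAGCTG, at 11.1% ± 0.12 and 16.5% ± 0.42. GC content was higher in the strongest than in the weakest 10% of promoters (medians of 67.2% and 55.2%). In distal peaks CAGCTG rose from 17.5% ± 2.80 in the weakest to 30.5% ± 1.39 in the strongest 10%. AP-1 was in 20.3% ± 4.09 and 25.4% ± 1.87, a difference close to the spread of the libraries, and it turned round when peaks were ranked by value in place of value per kb. All motifs were read on both strands; ETS and PU.1 share the letters GGAAGT, and a YY1 match followed by C is also a CTCF core match.

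**Figure D4:**
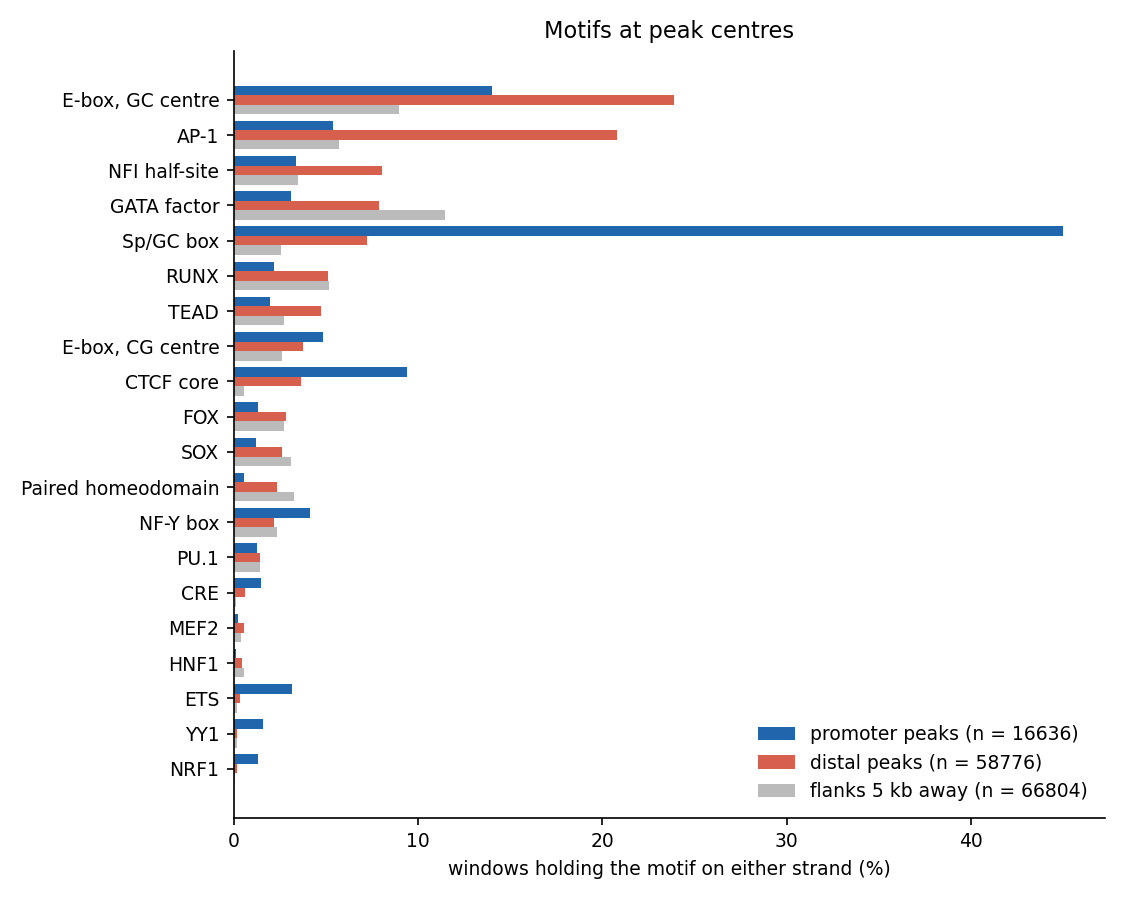
Share of windows at peak centres that hold each motif on either strand, in percent, for promoter peaks, distal peaks and flanks 5 kb away. The longest bar is the GC box in promoter peaks (45.0%), and in distal peaks AP-1 (20.8%) and the E-box with a GC centre (23.9%) exceed their flanks by the most percentage points, while by ratio the CTCF core (6.71 times) and the CRE (5.29 times) exceed them more.

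The libraries also differed by motif. At the 12211 distal peaks with AP-1, relative to distal peaks without it, control 3 was 1.12 times as high as the other libraries, with log2 deviations of -0.06, -0.05 and 0.11 for controls 1, 2 and 3. At the 14043 distal peaks with CAGCTG the ratio of control 3 was 0.946. Accordingly 15.6% of the weakest 10% of distal peaks held AP-1 in control 3, against 22.9% and 22.3% in controls 1 and 2.

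Replicate spread depended on the level and position of a peak. The median coefficient of variation over the 3 libraries was 12.9% and 7.69% without control 3, and 0.829% of peaks differed by over 2-fold between controls 1 and 2, 2.17% between 1 and 3 and 1.46% between 2 and 3. The median coefficient fell from 22.0% at mean values of 10 to 50 to 9.83% at 1000 to 2000. Counting error alone gave 19.95% and 2.97% there, as a root mean square that is not directly comparable with a median. On that measure the spread beyond counting was 20.2% and 11.5%. Under the authors' scaling the median coefficient stayed at 10.7% for peaks over 2000, but was 3.95% there after median-of-ratios scaling, so the spread of strong peaks depended on the scaling. Promoter peaks varied less (9.90%) than exonic (13.0%), intergenic (14.5%) or intronic peaks (14.8%), which also have lower values. Among peaks with a mean over 100, the most variable was an intronic peak of Catsperd (31, 25 and 346), followed by chr2:84504827-84505410 (51, 393 and 20), Pgd (71, 40 and 443), Gm47015 (63, 55 and 357) and chr4:143121120-143121523 (58, 65 and 340). In 4 of these 5 control 3 was the high library and in the other control 2. The 5 least variable peaks had identical values in all 3 libraries, of 421, 211, 140, 124 (at Gm11642) and 117.

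**Figure D5:**
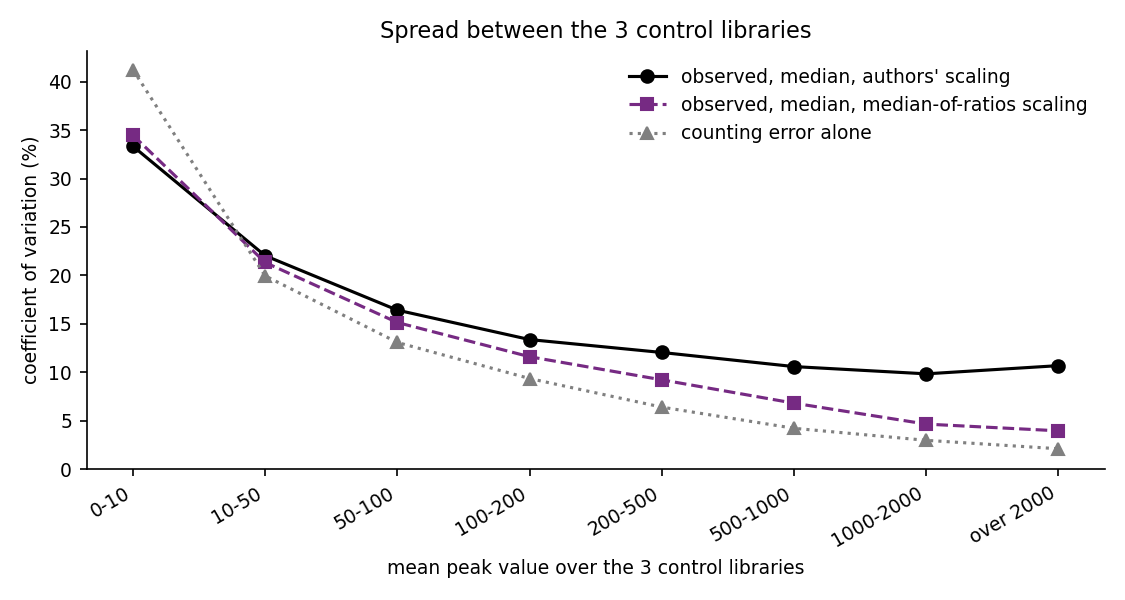
Median coefficient of variation over the 3 control libraries in percent, in bins of the mean peak value, under the authors' scaling and under median-of-ratios scaling. The counting error alone is drawn as a root mean square, which is not directly comparable with the medians. The observed curves lie together for weak peaks and part for strong ones, where the authors' scaling leaves 10.7% and the other 3.95%.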

How the data were processed

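ATAC-seq of 3 control libraries was analysed from 1 table. Per the submitters' processing notes and the methods, the authors trimmed reads with Trimmomatic 0.39 and aligned them with STAR 2.7.11b to mm10 (Ensembl release 101). They removed duplicates with Picard 3.1.1, and also reads that were spliced, multi-mapping, ribosomal or mitochondrial. Peaks were called with MACS without input and reads were counted with featureCounts. The counts were normalized for sequencing depth by a method not given in the sources used here. DESeq served for their contrasts, which were not used, and a Tn5 shift is not given in the sources used here. The deposited values are a score: normalized counts rounded to whole numbers, not raw counts.

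Computed here (Python 3.11.15, pandas 2.3.3, NumPy 2.4.6) were values per kb of peak, SDs over libraries, coefficients of variation, log2(value + 1), GENCODE release 21 features and motif matches; BLAST 2.17.0 matched peaks to mitochondrial sequence. Of the 21350 gene IDs found in GENCODE, 99.3% had an identical span there. Scripts were tested on simulated data. No test was run, since the design gives 1 group. Named were the marker genes, the 10 highest peaks by value, per kb and without a gene, the 10 genes with the highest sum and the 10 with most peaks, the extremes of each list and its genes without a peak, and the 5 most and least variable peaks with a mean over 100. A few genes that this rule names are not reported here. Members, lists and markers were chosen with earlier results of these data known. Errors cover the spread of 3 libraries, which limits the precision. Alternatives covered scaling, width, low values, pseudocount, annotation and each replicate left out.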

Additional observations from a re-analysis of the deposited data

How the results depend on the processing

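Of 248 alternative values for 32 results, 183 were classed as the same, 63 as moved and 2 as turning the direction. The spread between replicates set the class where there was one. The counts of the 100 strongest peaks and genes have no such spread. At least 95 of each 100 stayed, which was classed as the same. Without 1 replicate in turn, the median coefficient of variation was 7.69 to 13.7% (12.9% with all, lowest without control 3) and the mean Pearson r of log2 values 0.980 to 0.989. Values per peak in place of per kb widened the log2 ratio of coding to lincRNA peaks from 1.14 to 1.61, that of peaks at 0 to 100 bp to peaks without a gene from 2.08 to 3.18 and that of the MuSC list to other lineages from 1.80 to 2.56. Peaks with a mean over 50 alone gave 1.05, 1.92 and 1.53, and summing the annotated peaks of each gene gave 1.56 for the last. Promoters held 51.1% of the signal at 500 bp and 60.7% at 3000 bp (55.1% at 1000 bp). The MuSC list lay 0.13 above all coding genes (log2) and -0.061 with summed peaks. The log2 ratio of AP-1 between the strongest and weakest 10% of distal peaks was 0.33 and became -0.31 with ranks by value; the cause was not tested. The count of 22 MuSC genes high in distal signal held in every alternative run for it. Samples were not paired between groups, because only control libraries enter, and no result comes from a test. The log2 differences between lists were taken within each library. With 3 libraries, and peaks partly called on mutant libraries, differences near the SD are not resolved by averages alone. The distance bins beyond 1000 bp differed by about the SD or little more, but the medians fell in each library taken alone. In peaks with mean values of 10 to 50, counting error (19.95%) and the spread beyond it (20.2%) were about equal under the authors' scaling.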

Other observations

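The sex chromosomes carried few peaks. The X chromosome had 1883 peaks with a median of 287 ± 28.7 per kb and 1.90% of the signal, lower than chromosome 11 (378 ± 34.7) and chromosome 7 (371 ± 34.97). The 3 peaks of Xist, the RNA that coats the inactive X, summed to 955, 951 and 1152. All 12 peaks on Y lay within 73.8 kb near its end (chrY:90739345-90813129), with summed values of 7513, 7032 and 6933, and none lay in the Y-linked genes Ddx3y, Kdm5d, Uty or Eif2s3y. The labels do not give the sex of any library.

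Stretches of neighbouring peaks in which 1 library departed from the others were rare, at 0.362%, 0.0981% and 0.484% of peak positions for controls 1, 2 and 3. Their ratios are centred on the genome-wide level of the library, and on this scale the Pax7 stretch had a median ratio of 1.42. After Pax7 the longest was a span of 2649 kb on chromosome 4 (chr4:145200072-147848885) near Tnfrsf8, Vps13d and Zfp978, where 21 peaks had a median ratio of 0.501 in control 3. On chromosome 6, the centred ratio of control 3 was 1.61 over 19 peaks near Emp1 and Gsg1 and 1.42 over 17 peaks near Cav3, Oxtr and Rad18. Near Trabd2b on chromosome 4, the centred ratio of control 1 was 0.759 over 17 peaks. These stretches were chosen by their values, after seeing the data.

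After the authors had removed mitochondrial reads, only 2 peaks matched mitochondrial sequence, and they held 0.0138% ± 0.0008 of the signal. Because of that filter, the share does not measure the mitochondrial content of the libraries. The larger peak, at the pseudogene Gm28438 (5474, 4809 and 5498), was covered over 100% of its length at 99.8% identity.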
